A study of Sus scrofa with 4 samples.

Results

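A small set of trophectoderm cells of the day 12 pig embryo carried transcripts of interferon-stimulated genes far above their level in the other trophectoderm cells. The cells were chosen by the level of 3 genes in the day 12 embryo library: PLET1 at 2000 CPM or more in the cell, which marks day 12 trophectoderm here, APOA1 below 5000 CPM, which keeps out apolipoprotein-rich cells of the hypoblast lineage, and ISG15 at 5 UMIs or more. A UMI is 1 counted RNA molecule, and CPM is a gene's UMIs scaled to the same total in every cell or group. By that rule 120 cells were ISG15-high, of 5755 cells of the library and 24258 cells of the whole series that passed limits of 2000 UMIs, 500 genes and at most 10% mitochondrial UMIs. They were compared with the 2479 cells of the same library that met the same PLET1 and APOA1 limits and held 0 to 4 ISG15 UMIs, called ISG15-low here. The ISG15-high cells were 4.62% of the 2599 PLET1-high cells (3.84 to 5.5%, exact binomial interval).

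The series holds 4 single-cell RNA libraries of pig (Sus scrofa) from a 3′ droplet kit: 1 of embryos on day 12 of pregnancy, 1 of embryos on day 9, and 1 of endometrium, the lining of the uterus, for each of those days. No breed, treatment or allele is given in the labels, and the number of embryos or sows behind a library is not stated there. With 1 library per group, differences have no replicates behind them and were not tested. Cells of 1 library are not replicates, and ISG15 chose the cells, so every value of the comparison is a description of this library. Intervals are at the 95% level and hold the counting error alone.

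Interferons are secreted signals that bind a receptor at the cell surface, activate transcription factors through JAK kinases, and switch on several antiviral genes together, among them ISG15, a ubiquitin-like protein that is attached to other proteins. The pig conceptus is known to secrete interferon gamma (IFNG) and a short type I interferon, interferon delta, from its trophectoderm around the time it elongates, and the endometrium is the known responder. The 5 marker genes of the response lie apart in the Sscrofa11.1 genome by RefSeq's annotation: ISG15 on chromosome 6 from 63363201 to 63364211, IFI6 on chromosome 6 from 84852782 to 84858072, MX1 on chromosome 13 from 204843049 to 204868927, BST2 on chromosome 2 from 60305306 to 60308295 and USP18 on chromosome 5 from 70183321 to 70227990.

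The libraries, under the same cell limits, held 5755 to 7336 cells in the embryo and 5229 to 5938 in the endometrium, with medians of 10433 and 11628 UMIs per cell in the embryo of day 12 and day 9 and of 2954 to 3025.5 in the endometrium. The ISG15-high cells had a median of 10729.5 UMIs (3223 to 36001), 2531 genes and 3.01% mitochondrial UMIs, and the ISG15-low cells 9774 UMIs (2005 to 35971), 2338 genes and 3.37%. Of the 120 ISG15-high barcodes, 8 also had 500 UMIs or more in the day 9 embryo library, 1 in the endometrium of day 9 and 0 in that of day 12, against 65, 31 and 50 of the 2479 ISG15-low barcodes. Without these barcodes, a setting added after seeing the data, the ISG15-high share was 4.53%, the counts past 2-fold were again 16 higher and 3 lower, and the log2 ratio was 4.81 for MX1 (4.80 with them), 1.19 for B2M (1.47 with them) and 1.51 for UBE2L6 (2.18 with them). Scrublet marked 0 of the ISG15-high and 9 of the ISG15-low cells as doublets, and doublets were kept.

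ISG15 was uneven among trophectoderm cells. Of the 2599 PLET1-high cells, 2095 (80.6%, 79.0 to 82.1%) had no ISG15 UMI, 289 had 1, 50 had 2 and 45 had 3 or 4. The ISG15-high cells held 5 to 109 ISG15 UMIs with a median of 8, and their summed counts gave 1131 CPM, against 21.8 CPM in ISG15-low cells. These values are what the rule chose. Just inside the limit stood 17 cells with 5 UMIs and 25 with 6, and just outside it 22 cells with 4 and 23 with 3, so the limit cuts a continuous tail and not a gap.

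**Figure D1:**
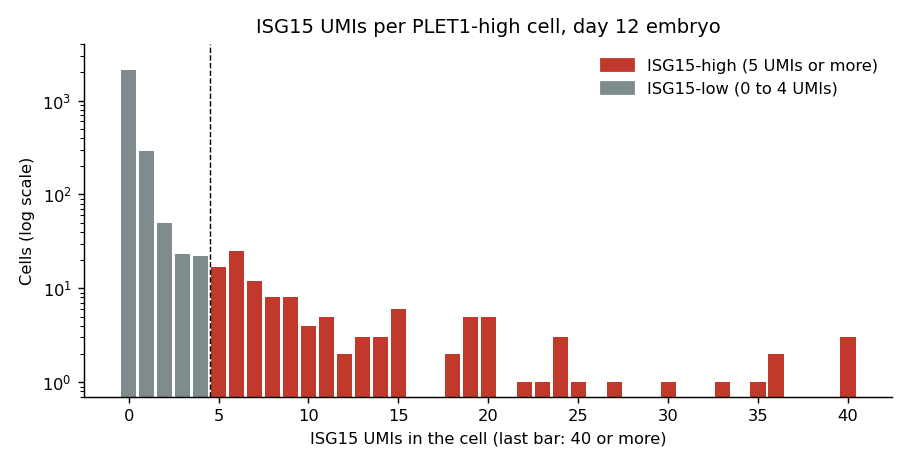
Number of PLET1-high cells of the day 12 embryo (log scale) by ISG15 UMIs in the cell, with the 120 ISG15-high cells in red, the 2479 ISG15-low cells in grey and the rule's limit as a dashed line. Most cells have no ISG15 UMI, and the tail runs on without a gap across the limit.

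The limit is set in UMIs, so deeper cells can reach it more easily. ISG15-high cells were 3.97% of PLET1-high cells with 2000 to 5000 UMIs (18 of 453), 4.03% with 5000 to 10000, 5.05% with 10000 to 20000 and 7.62% above that (8 of 105, 3.35 to 14.5%). Every cell was then thinned to 2000 UMIs. After that, 85% of ISG15-high cells (77.3 to 90.9%) and 4.52% of ISG15-low cells (3.73 to 5.41%) held an ISG15 UMI, an order that the rule sets. The share was 3.54% (2.86 to 4.33%) in the 2571 PLET1-low, APOA1-high cells (median 11092 UMIs). No measure of free RNA was made, so how much of the ISG15 in ISG15-low cells is background was not tested. Without thinning the shares were 100% of ISG15-high cells, 15.5% of ISG15-low cells and 15.8% of PLET1-low, APOA1-high cells.

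The ISG15-high cells carried the genes of trophectoderm at nearly the levels of their ISG15-low neighbours. All 11 measured trophectoderm markers of 12 listed had UMIs in them. Without PLET1, which the rule used, the other 10 summed to 11764 CPM in ISG15-high cells and 11413 CPM in ISG15-low cells. HAND1, a transcription factor of trophoblast, stood at 1885 CPM in ISG15-high and 1756 CPM in ISG15-low cells, against 88.0 CPM in PLET1-low, APOA1-high cells. The keratin genes KRT8 and KRT18 stood at 5966 and 2959 CPM in ISG15-high cells and at 5753 and 2879 CPM in ISG15-low cells. KRT8 was also at 4154 CPM in PLET1-low, APOA1-high cells, so its level is weak evidence of identity. The keratins hold most of the sum above, so that sum is weak evidence too. CTBS, which encodes the lysosomal chitobiase, was at 3384 CPM in ISG15-high and 3420 CPM in ISG15-low cells, against 160 CPM in PLET1-low, APOA1-high cells. Of 16 hypoblast markers, no measured one at 20 CPM or more was 2-fold apart. The level of APOA1 was held down in both groups by the rule and is no evidence of identity.

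Defining markers of leukocytes and endometrial cells were at or near 0 in the ISG15-high cells. PTPRC, the common leukocyte antigen, had 0 UMIs in both groups, and 9 of 12 leukocyte markers were at 0 in ISG15-high cells, including CD3E, CD2 and CD163. AIF1 and CD79A, listed as leukocyte markers, were exceptions, at 223 and 151 CPM in ISG15-high cells and 213 and 156 CPM in ISG15-low cells, and CD14 had 2 UMIs in ISG15-high and 162 UMIs in ISG15-low cells. The stromal gene DCN, at 9491 CPM in the day 12 endometrium, had 0 UMIs in ISG15-high cells, which allows up to 2.18 CPM. Endometrial stromal markers summed to 3.64 CPM in ISG15-high and 2.07 CPM in ISG15-low cells. Of 6 measured endometrial epithelium markers, WFDC2 alone had UMIs in ISG15-high cells, at 48.0 CPM, against 52.9 CPM in ISG15-low cells. The haemoglobin gene HBM had 6 UMIs in 6 ISG15-high cells and 20 UMIs in ISG15-low cells, and the part of this in the results was not tested.

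Across the whole transcriptome, few genes separated the groups, and 9 of the 16 that were higher stand on the list of type I interferon-stimulated genes. Of 4319 genes at 20 CPM or more in either group (without ISG15, PLET1 and APOA1), 16 were 2-fold or more higher in ISG15-high cells, 0.37% of those tested, and 3 were 2-fold or more lower, 0.0695%. The median log2 ratio was 0.0 and 97.8% of the genes lay within 1.5-fold. The 16 were MX1, BST2, IFI6, IFI44L, USP18, ISG12(A), OAS2, ADAR, B2M, IRF7, PSME2, EIF2AK2, TRIM21, CNP, TAP1 and B3GLCT. Of these 16, 14 passed the level limit through the ISG15-high cells only, where they had to be high to pass, and B2M and PSME2 passed it in both groups. The 3 lower genes all passed it through the ISG15-low cells only. When the limit was set on both groups' counts together, 3 genes were higher and 1 lower.

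**Figure D2:**
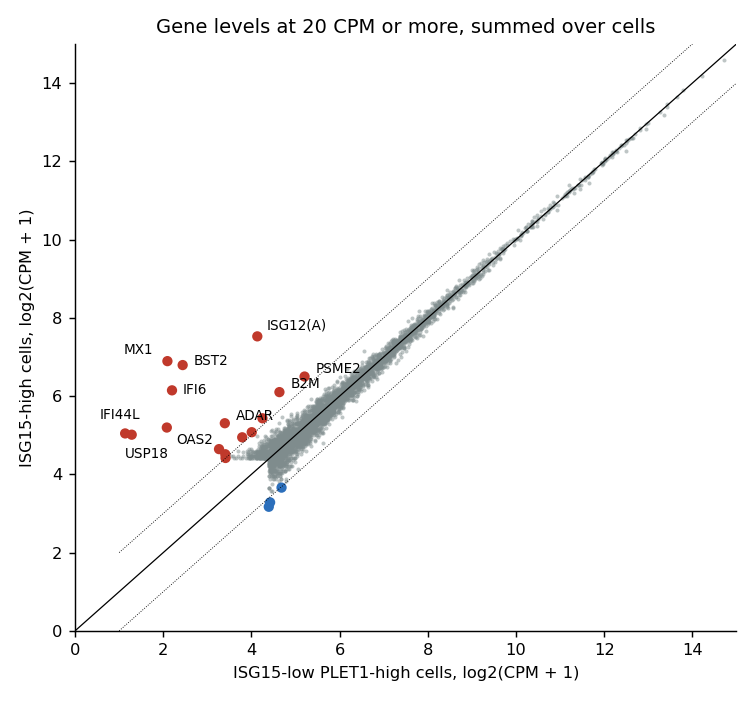
Levels of genes at 20 CPM or more, as log2(CPM + 1), in ISG15-high cells (vertical axis) and ISG15-low PLET1-high cells (horizontal axis), summed over cells; the solid line marks equality, the dotted lines 2-fold, and genes past 2-fold are red (higher, 16) or blue (lower, 3). MX1, BST2, IFI6 and ISG12(A) lie far above a narrow diagonal that holds 97.8% of the genes within 1.5-fold.

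The first group was the antiviral effectors. MX1, a dynamin-like GTPase that blocks viral replication, had 162 UMIs in ISG15-high cells (118 CPM) and 82 in ISG15-low cells (3.27 CPM), 36.1-fold higher (27.5 to 47.6). It was seen in 47.5% of ISG15-high and 2.5% of ISG15-low cells, and after thinning in 15.8% of ISG15-high and 0.605% of ISG15-low cells, beside 0.311% in PLET1-low, APOA1-high cells. The highest ISG15-high cell held 13 of its UMIs. OAS2, which makes the oligoadenylates that activate RNase L, was at 35.6 CPM in ISG15-high and 3.23 CPM in ISG15-low cells (11-fold, 7.58 to 15.9). ADAR, an RNA-editing enzyme with an interferon-induced form, was at 38.6 CPM in ISG15-high and 9.53 CPM in ISG15-low cells, and EIF2AK2, the kinase PKR that stops translation on double-stranded RNA, at 42.2 CPM in ISG15-high and 18.0 CPM in ISG15-low cells. TRIM21, an intracellular antibody receptor, stood at 29.8 CPM in ISG15-high and 12.8 CPM in ISG15-low cells.

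The second group held other interferon-induced genes, some of whose products act at membranes or mitochondria. BST2, or tetherin, which holds budding virus at the cell surface, was at 110 CPM in ISG15-high and 4.42 CPM in ISG15-low cells (24.8-fold, 19.3 to 32.0) and was seen in 60% of ISG15-high and 3.71% of ISG15-low cells. After thinning these shares were 20% of ISG15-high and 1.01% of ISG15-low cells, beside 2.57% in PLET1-low, APOA1-high cells. IFI6 was at 69.8 CPM in ISG15-high and 3.59 CPM in ISG15-low cells (19.5-fold, 14.5 to 26.3). ISG12(A), an interferon-inducible gene that was not on the list and was named by its rank, was at 183 CPM in ISG15-high and 16.5 CPM in ISG15-low cells (11-fold, 9.44 to 13). IFI44L was at 32.0 CPM in ISG15-high and 1.2 CPM in ISG15-low cells (26.8-fold, 16.5 to 44.1). Its relative IFI44 had 16 UMIs in 13 ISG15-high cells and 0 UMIs in all ISG15-low cells, at least 97.3-fold higher against a floor of 3 counts over the group. IFITM3, a membrane protein that hinders viral entry, had 8 UMIs in ISG15-high and 5 UMIs in ISG15-low cells.

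The enzymes that attach and remove ISG15 were unequal. USP18, the protease that removes ISG15 and also damps the type I receptor, had 43 UMIs in ISG15-high cells and 36 in ISG15-low cells (21.8-fold, 13.7 to 34.9). HERC5, known in human cells as the main ligase of the pathway, rested on 16 UMIs in ISG15-high and 3 UMIs in ISG15-low cells (97.3-fold, 27.9 to 521), and the conjugating enzyme UBE2L6 on 13 UMIs in ISG15-high and 33 UMIs in ISG15-low cells (7.19-fold, 3.47 to 14). Of these 13 UMIs of UBE2L6, 5 came from 1 cell, and its log2 ratio was lower without the shared barcodes, as given above. UBA7, the activating enzyme, had 0 UMIs in ISG15-high cells and 4 in ISG15-low cells, so a difference was not detectable at this depth. HERC6 had 2 UMIs in ISG15-high and 0 UMIs in ISG15-low cells, and the ligase gene TRIM25 4 UMIs in ISG15-high and 9 UMIs in ISG15-low cells.

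Of the type I list as a whole, 62 genes were listed and 51 measured, ISG15 among them. The 10 others at 20 CPM or more all passed that limit through ISG15-high cells only, so their median log2 ratio of 3.42, beside 0.0 over all genes tested, gives no independent weight; 9 of them were 2-fold or more higher and CMTR1 was 1.54-fold higher (1.08 to 2.14). The 40 genes below the limit held 140 UMIs in ISG15-high cells and 672 in ISG15-low cells, or 102 CPM in ISG15-high and 26.8 CPM in ISG15-low cells (3.8-fold, 3.15 to 4.57). Without any level limit, 33 of the 42 listed genes with a UMI had the higher CPM in ISG15-high cells and 9 the lower, beside 5738 of 14578 over all genes (39.4%). The 33 include the 10 genes at 20 CPM or more. A gene with UMIs in ISG15-low cells alone counts as lower, and those cells held far more UMIs, so these shares depend on depth. Among the 17 listed genes at 0 in ISG15-high cells were MX2, IFIT2, OASL, CMPK2 and RIGI. IFIT2, OASL and CMPK2 were also at 0 in ISG15-low cells, where MX2 and RIGI had 2 and 8 UMIs. A difference in these genes was thus not detectable at this depth.

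Among genes that relay the interferon signal, some were more than 2-fold higher and others were level. IRF7, the transcription factor that amplifies type I interferon production, was at 24.0 CPM in ISG15-high and 8.61 CPM in ISG15-low cells (2.79-fold, 1.87 to 4.04). STAT2, a transcription factor of the type I response, rested on 11 UMIs in ISG15-high and 111 UMIs in ISG15-low cells (1.81-fold, 0.878 to 3.36), an interval that holds 1. JAK1 was at 13.8 CPM in ISG15-high and 10.4 CPM in ISG15-low cells, IRF3 at 21.1 CPM in ISG15-high and 21.6 CPM in ISG15-low cells, and the feedback inhibitors SOCS1 and SOCS3 at 9.46 and 34.2 CPM in ISG15-high cells and 9.53 and 32.5 CPM in ISG15-low cells. PTPN6, a phosphatase that damps cytokine receptor signals, rested on 12 UMIs in ISG15-high and 79 UMIs in ISG15-low cells (2.77-fold, 1.37 to 5.12). PTPN2, a phosphatase that acts on JAK and STAT proteins, was at 16.7 CPM in ISG15-high and 27.5 CPM in ISG15-low cells (0.609 of the ISG15-low level, 0.384 to 0.922). Of the 25 measured genes of this list, 5 reached 20 CPM, of which 1 was 2-fold or more higher and 0 lower.

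The receptors were scarce in trophectoderm. IFNAR1 and IFNAR2, the chains of the type I receptor, had 1 and 0 UMIs over the 120 ISG15-high cells and 15 and 20 UMIs over the ISG15-low cells. In the day 12 endometrium they stood at 80.6 and 40 CPM. IFNGR1, the ligand-binding chain of the interferon gamma receptor, was at 2.18 CPM in ISG15-high cells and 2.75 CPM in ISG15-low cells, against 31.4 CPM in PLET1-low, APOA1-high cells, and IFNGR2 had 0 UMIs in ISG15-high and 1 UMIs in ISG15-low cells. Among sensors of foreign RNA, DHX58 had 7 UMIs in ISG15-high and 4 UMIs in ISG15-low cells. IFIH1 had 8 UMIs in ISG15-high and 20 UMIs in ISG15-low cells (7.3-fold, 2.78 to 17.3). RIGI had 0 UMIs in ISG15-high and 8 UMIs in ISG15-low cells, so a difference was not detectable at this depth.

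**Figure D3:**
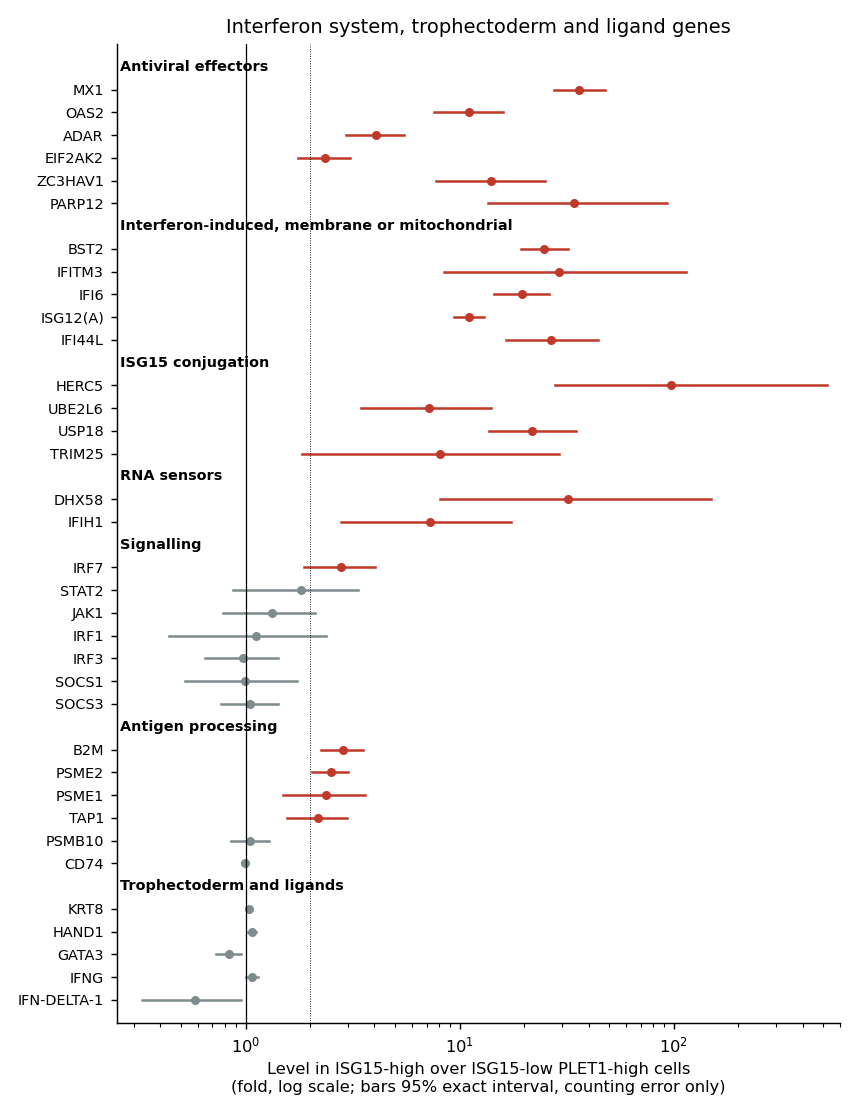
Level in ISG15-high over ISG15-low PLET1-high cells (fold, log scale) for genes of the interferon system by role, with trophectoderm and ligand genes for comparison; bars are exact 95% intervals for counting error, and genes at 2-fold or more are red. Effectors such as MX1 and BST2 lie above 10, IRF7 and the antigen processing genes B2M, PSME2, PSME1 and TAP1 between 2 and 3, and KRT8, HAND1 and IFNG at about 1.

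The same ISG15-high cells also differed in part of the class I antigen pathway, which cuts proteins and loads the peptides for display. PSME2, a subunit of the proteasome activator PA28, was at 89.5 CPM in ISG15-high and 35.9 CPM in ISG15-low cells (2.49-fold, 2.05 to 3.01), and its partner PSME1 at 18.2 CPM in ISG15-high and 7.69 CPM in ISG15-low cells (2.36-fold, 1.49 to 3.6). B2M, the light chain of class I molecules, was at 67.7 CPM in ISG15-high and 23.8 CPM in ISG15-low cells (2.84-fold, 2.26 to 3.54). RefSeq lists 2 loci named B2M next to each other, so its counts may be incomplete, and 15 of its 93 UMIs in ISG15-high cells came from 1 cell. Its log2 ratio was 0.70 with ISG15-high cells defined by 2 thinned UMIs, against 1.47 as reported. The peptide transporter gene TAP1 was at 32.7 CPM in ISG15-high and 15.1 CPM in ISG15-low cells (2.17-fold, 1.56 to 2.97). CD74, CALR, CANX and PSMB10 stood at 2673, 1278, 726 and 75.7 CPM in ISG15-high cells and at 2694, 1322, 747 and 71.9 CPM in ISG15-low cells. Over the list, 15 of 25 genes were measured, 8 reached 20 CPM, 3 of these were 2-fold or more higher and 0 lower, and the median log2 ratio was 0.03.

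Genes known to be induced mainly by interferon gamma were at 0 or within 2-fold where they could be compared. IDO1, GBP1, CXCL9, CXCL10 and CXCL11 had 0 UMIs in both groups, and GBP2, CIITA and CD274 had 0 UMIs in ISG15-high cells. In ISG15-low cells GBP2, CIITA and CD274 had 6, 2 and 15 UMIs, so a difference in these genes was not detectable at this depth. IRF1, an early interferon-induced transcription factor, had 7 UMIs in ISG15-high and 114 UMIs in ISG15-low cells (1.12-fold, 0.441 to 2.38). That interval reaches past 2-fold in both directions. WARS1 stood at 32.0 CPM in ISG15-high and 36.0 CPM in ISG15-low cells. In the day 12 endometrium, GBP1 was at 873 CPM, CXCL10 at 2588 CPM and IDO1 at 79.1 CPM. The 2 members of this list at 20 CPM or more, WARS1 and ICAM1, were within 2-fold.

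The interferon genes that trophectoderm is known to transcribe were present in both groups. IFNG was at 701 CPM in ISG15-high and 653 CPM in ISG15-low cells (1.07-fold, 1.01 to 1.15), against 50.5 CPM in PLET1-low, APOA1-high cells. A UMI of IFNG was held by 97.5% of ISG15-high and 95.4% of ISG15-low cells, and after thinning by 62.5% of ISG15-high and 68.4% of ISG15-low cells, so no order is read from the shares. IFN-DELTA-1, the trophoblast interferon delta, had 16 UMIs in ISG15-high and 502 in ISG15-low cells (0.582 of the ISG15-low level, 0.33 to 0.954). Its log2 ratio, -0.73 as reported, ran from -0.98 to -0.12 over the alternatives. After thinning, 2.5% of ISG15-high (0.519 to 7.13%) and 3.87% of ISG15-low cells (3.15 to 4.71%) held a UMI of it, intervals that overlap. Of 20 measured type I or type II interferon genes, 16 had 0 UMIs in both groups, IFNB1 among them. IFNE had 0 UMIs in ISG15-high and 2 in ISG15-low cells, and IFNA1 had 1 UMIs in ISG15-high and 0 UMIs in ISG15-low cells. Cells of a separate thinning draw were binned by their IFNG UMIs. ISG15-high cells were 3.2% of PLET1-high cells with 0 (2.13 to 4.59%), 4.91% with 1 (3.53 to 6.62%) and 5.73% with 2 or more (4.31 to 7.44%), neighbouring intervals that overlap. In that draw 28 of the 120 ISG15-high cells held no IFNG UMI, whereas 62.5% held one in the draw above. The draws differ, so no order is read from the bins either. ISG15-high cells were 4.72% of the cells without a thinned IFN-DELTA-1 UMI and 2 of the 95 cells with 1 (2.11%, 0.256 to 7.4%), an interval that holds the former share.

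ISG15-high cells were spread over the range of PLET1. They were 4.42% of cells with PLET1 at 2000 to 5000 CPM (10 of 226), 4.87% with 5000 to 10000, 4.17% with 10000 to 15000 and 4.81% above that. By mitochondrial share they were 5.46% of cells under 2%, 5.22% from 2 to 4% and 3.4% above 4% (2.32 to 4.79%).

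The interferon genes followed the amount of ISG15 in a cell, on both sides of the limit. MX1, IFI6, BST2 and USP18 together stood at 7.76 CPM in cells with 0 ISG15 UMIs, 20.2 with 1, 47.5 with 2 and 119 with 3 or 4, and at 166 CPM with 5 or 6, 303 with 7 to 9, 387 with 10 to 19 and 603 with 20 or more (20 cells). Over those bins the share of cells with a UMI of the 4 genes was 6.87% at 0 ISG15 UMIs, 51.1% at 3 or 4 and 69.0% at 5 or 6, with median depths of 9572, 11891 and 10571.5 UMIs. ISG12(A) stood at 13.4 CPM at 0 ISG15 UMIs and at 310 CPM at 20 or more. B2M, PSME1, PSME2 and TAP1 together were at 81.4, 81.6 and 81.5 CPM at 0, 1 and 2 ISG15 UMIs, at 130 with 3 or 4 and at 183 to 280 CPM in the bins above. HAND1 stood between 1605 and 1981 CPM in every bin, with no order, and IFNG between 613 and 695 CPM in all bins but the highest, where it was at 939 CPM (818 to 1074).

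**Figure D4:**
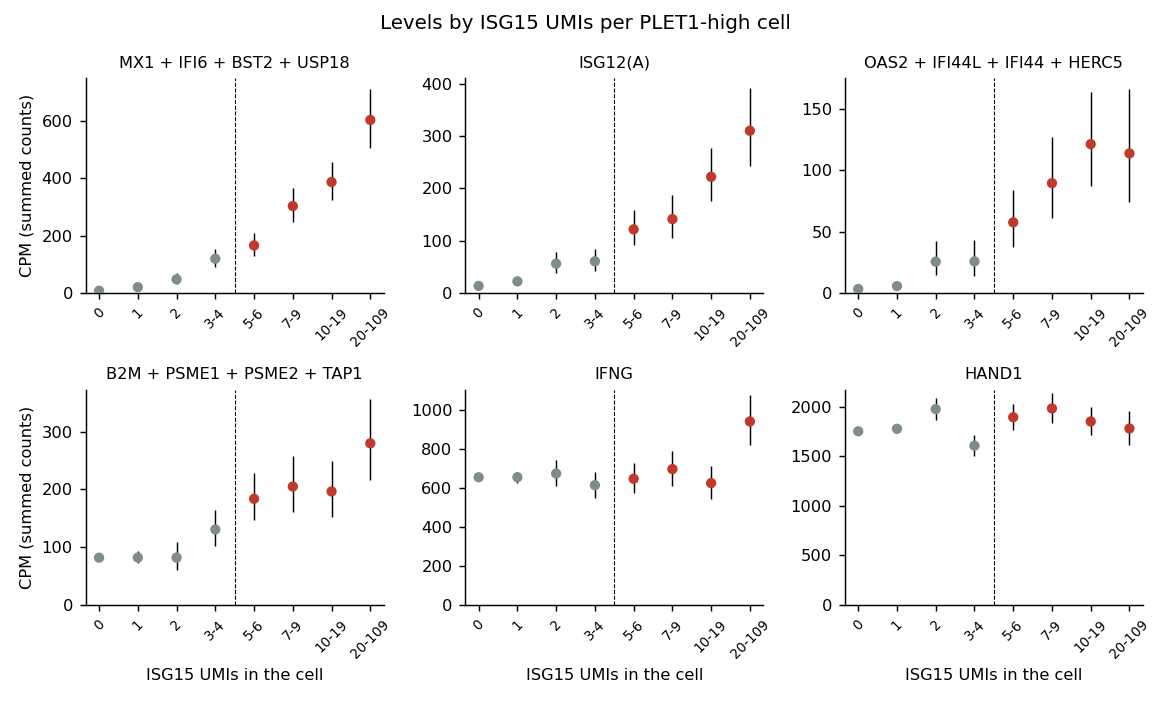
Summed level (CPM) of gene sets in PLET1-high cells by the ISG15 UMIs of the cell, with exact Poisson 95% intervals for counting error; bins right of the dashed line and in red are ISG15-high. MX1, IFI6, BST2 and USP18 together, and ISG12(A), climb from 0 ISG15 UMIs to the highest bin. OAS2, IFI44L, IFI44 and HERC5 together reach 121 CPM at 10 to 19 UMIs and stand at 114 CPM at 20 or more. The antigen processing set is level up to 2 UMIs and higher from 3 or 4. HAND1 shows no order, and IFNG is higher in the highest bin only.

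The ISG15-high cells also varied among themselves. Of the 120, 99 (82.5%) held a UMI of MX1, IFI6, BST2 or USP18, against 222 of 2479 ISG15-low cells (8.96%), and 57 ISG15-high cells held 3 or more, against 20 ISG15-low cells. The median ISG15-high cell had UMIs of 5 other interferon-stimulated genes (0 to 14), and the median ISG15-low cell of 1 (0 to 11). The 21 ISG15-high cells with no UMI of the 4 genes had a lower median of 8697 UMIs and of 6 ISG15 UMIs, against 11171 and 9 in the other 99, with ISG12(A) at 70.3 CPM, against 204 CPM in the others. Their lower depth moves with this difference, and its part was not tested. Conversely, 33 of the 2479 ISG15-low cells had 5 or more other interferon-stimulated genes, outside the rule, against 66 of the 120 ISG15-high cells. Within the ISG15-high cells, thinned to 2000 UMIs, no gene of 3415 had a rank correlation with the sum of the 4 genes above 0.29, a value of DUSP5; ISG15 and ISG12(A) were among the 10 highest, at 0.267 and 0.264, and at these sparse counts the order is no finding.

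Beyond the interferon system, the listed genes at 20 CPM or more lay within 2-fold in both directions. Of 13 trophectoderm regulators and keratins at 20 CPM or more, 0 were 2-fold apart (median log2 ratio 0.07), GATA2 being at 252 CPM in ISG15-high and 284 CPM in ISG15-low cells and GATA3 at 159 CPM in ISG15-high and 191 CPM in ISG15-low cells. The same held for 9 steroid synthesis genes (median 0.01), with HSD17B1, which makes oestradiol, at 178 CPM in ISG15-high and 215 CPM in ISG15-low cells and CYP11A1, which starts steroid synthesis, at 135 CPM in ISG15-high and 139 CPM in ISG15-low cells. It also held for 10 cathepsin genes (median 0.05; CTSL at 4801 CPM in ISG15-high and 4603 CPM in ISG15-low cells), 6 prostaglandin genes (median 0.05; PTGS2 at 298 CPM in ISG15-high and 329 CPM in ISG15-low cells), 12 glycolysis genes (median -0.03) and 3 cytokines and growth factors (median -0.17; HBEGF at 84.4 CPM in ISG15-high and 95.2 CPM in ISG15-low cells). Of the 9 day 12 trophectoderm genes, a list taken from earlier results of these data, 0 were 2-fold apart (median -0.07).

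Proliferation, handling and stress genes stood likewise. Cell cycle genes of G2 and M had a median of 0.13 (7 genes; UBE2C at 169 CPM in ISG15-high and 150 CPM in ISG15-low cells), and those of S phase of -0.25 (6 genes; PCNA at 86.6 CPM in ISG15-high and 101 CPM in ISG15-low cells), with 0 of either list 2-fold apart. Genes that cell dissociation induces had a median of -0.16 (10 genes; FOS at 1007 CPM in ISG15-high and 1081 CPM in ISG15-low cells, EGR1 at 355 CPM in ISG15-high and 411 CPM in ISG15-low cells). Stress and cell death genes had a median of 0.0 (7 genes; ATF4 at 459 CPM in ISG15-high and 460 CPM in ISG15-low cells), and of the NF-kappa-B targets SOD2 was at 108 CPM in ISG15-high and 105 CPM in ISG15-low cells and NFKBIA at 45.1 CPM in ISG15-high and 52.5 CPM in ISG15-low cells.

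**Figure D5:**
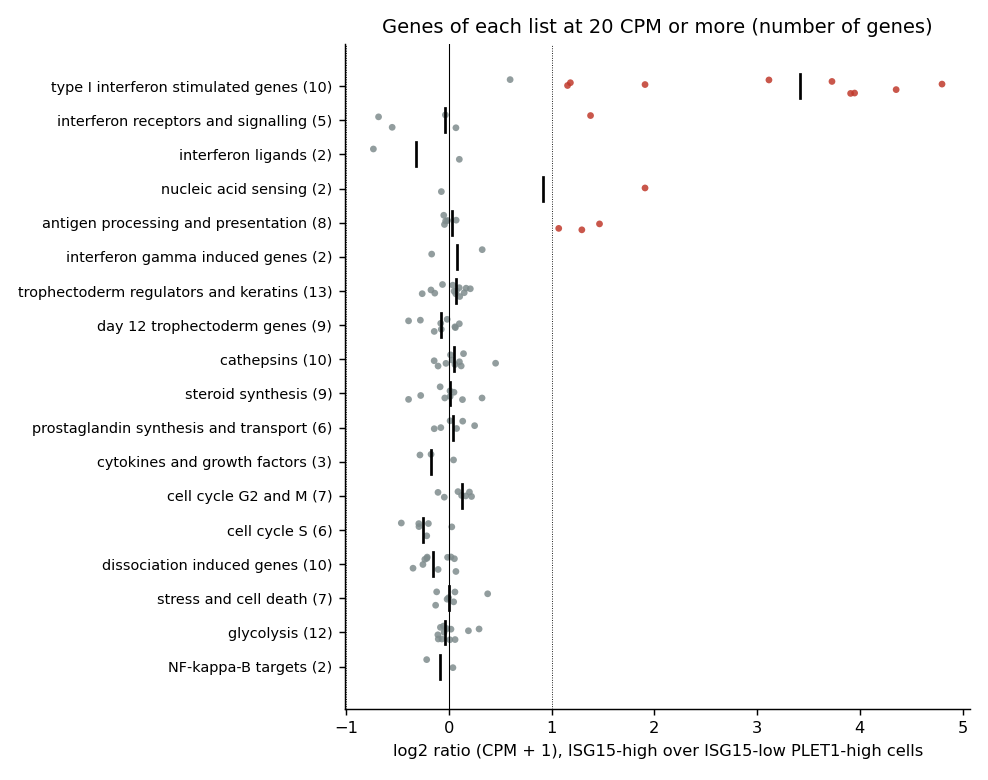
Log2 ratio (CPM + 1) of ISG15-high over ISG15-low PLET1-high cells for the genes of each list at 20 CPM or more, 1 point per gene, with a bar at the list's median and the number of genes in brackets; lists with fewer than 2 such genes are left out, dotted lines mark 2-fold, and genes past it are red. Genes past 2-fold stand on the lists of type I interferon-stimulated genes, signalling (IRF7), nucleic acid sensing (ADAR) and antigen processing, and every other list lies around 0.

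By the rule of the 15 highest and 10 lowest ratios at 50 CPM or more, the order was as follows. MX1, BST2, IFI6, ISG12(A), B2M and PSME2 were the 6 highest of 1981 genes, and each reached 50 CPM in ISG15-high cells only, where it had to be high to pass. After them came UCHL1, HMGN2, LLPH, NUSAP1, MRPL34, SAE1, MAD2L2, EAPP and PTI, at 1.52-fold to 1.38-fold higher in ISG15-high cells. The 10 lowest were U2AF2, ATP11A, CPT1A, MAGED1, LSR, CLPTM1L, DDX21, PRDX4, TIMP3 and PTTG1IP, from 1.52-fold to 1.33-fold lower. The 3 genes at 2-fold or more lower at 20 CPM, SNX16, MCMBP and SLC30A5, rested on 11, 12 and 16 UMIs in ISG15-high cells, against 502, 513 and 619 UMIs in ISG15-low cells. All 3 passed the level limit through the ISG15-low cells only, where they had to be high to pass. Each fell short of 2-fold under some alternatives, with log2 ratios up to -0.47, -0.87 and -0.67. Among scarcer genes chosen after their values were seen, the antiviral zinc finger gene ZC3HAV1 had 23 UMIs in ISG15-high and 30 UMIs in ISG15-low cells (14-fold, 7.76 to 24.9) and PARP12 15 UMIs in ISG15-high and 8 UMIs in ISG15-low cells (34.2-fold, 13.6 to 93.2). The log2 ratio of PARP12 was 1.45 with ISG15-high cells defined by 2 thinned UMIs, against 3.18 as reported.

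Across the series, ISG15 was nearly absent from the day 9 embryo and abundant in the endometrium. The day 9 embryo had ISG15 at 5 UMIs or more in 1 of 7336 cells and 1.24 CPM in all. In the endometrium 49.2% of day 9 cells and 47.2% of day 12 cells reached 5 UMIs, at 1654 and 1626 CPM, at a lower median of UMIs per cell. ISG15 chose the ISG15-high cells, so their level of it follows from the limit and is not set against unselected endometrial cells. MX1, IFI6, BST2 and USP18 together, and ISG12(A), rose with ISG15, so their levels also follow in part from the limit. The figures for the other genes are therefore a description only. The ISG15-high cells reached 79.9% of the day 12 endometrial level of MX1, 52.1% of that of BST2 and 46.5% of that of USP18. For IFI6 the figure was 2.02%, for ISG12(A) 10.4% and for B2M 0.401%. MX2 and IFIT1, at 88.8 and 317 CPM in the day 12 endometrium, had 0 and 1 UMIs in ISG15-high cells. The endometrial values are over all cell types of that tissue.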

How the data were processed

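Embryos and endometrium were dissociated with enzymes and run on a 3′ droplet kit, as the labels' protocols say. The deposited matrices hold raw UMI counts for each gene and barcode; the submitters' processing notes name Cell Ranger 6.1.2 and the build Sscrofa11.1, while the day 9 embryo's header gives Cell Ranger 4. That library is deposited with 657829 barcodes, of which 20499 have 500 UMIs or more; the others hold 8105 to 11757. The authors' filter on cells is not stated. Of 21280 genes, 14811 have a symbol in the files, and 694 more were matched in a RefSeq-based table.

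The members and gene lists were chosen with earlier results of these data known. Counts were summed over cells and scaled to CPM. Log2 ratios used 1 CPM added, folds have exact binomial intervals and levels exact Poisson ones. The APOA1 limit was applied to both groups; without it on the comparison cells (2721 cells) is an alternative. The ISG15-high cells held 1374694 UMIs and the ISG15-low cells 25091599. Levels come from 3′ tags and are compared between groups. No test was run, and the ratio step was checked on simulated data that held counting error alone. Of 50 genes simulated 2-fold higher, 22% were called past 2-fold, and of 50 simulated 2-fold lower, 54%. At 4-fold higher or lower 100% were called, and of 4119 unchanged genes 2 were. A difference near 2-fold can thus be missed by the counts of genes past 2-fold. For shares, cells were thinned to 2000 UMIs. Scrublet was run on the embryo library of day 12 and its calls were kept in. Genes were named by rank (15 highest and 10 lowest at 50 CPM, without mitochondrial, ribosomal protein and haemoglobin genes) or from the lists: any gene of the interferon lists, and of the others up to 4 by level and any past 2-fold. A result on an item withheld for evaluation is not reported here. Alternatives changed the limits on ISG15, PLET1, APOA1, depth, mitochondrial share and level, the scaling, the comparison cells and doublets. Computation used Python 3.11.15, numpy 2.4.6, scipy 1.17.1, pandas 2.3.3 and scanpy 1.11.5.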

Additional observations from a re-analysis of the deposited data

How the results depend on the processing

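The share of ISG15-high cells was 6.35% of PLET1-high cells with a minimum of 3 ISG15 UMIs, 1.92% with 10 and 3.12% with 2 UMIs after thinning. The count of genes 2-fold or more higher (16) was 35 with a minimum of 10 UMIs (50 cells), 27 with comparison cells matched on depth (120 cells), 51 at 5 CPM, 3 at 100 CPM and 3 with 20 CPM over both groups together, a setting added after seeing the data. The count of genes lower (3) was 0 with 3 UMIs, 42 with 10, 9 with ISG15 at 500 CPM or more, 17 with 2 thinned UMIs, 9 with matched cells, 68 at 5 CPM, 0 at 100 CPM and 1 with 20 CPM over both groups, so it was not stable. The median log2 ratio of the type I list (3.42) was 2.95 as the mean of per-cell CPM, 2.45 at 5 CPM and 4.58 at 100 CPM; the added 20 CPM setting left no list member. The cause of these shifts was not tested. MX1, BST2, IFI6, IFI44L, USP18, ISG12(A), OAS2, ADAR, IRF7 and PSME2 stayed 2-fold or more higher under the 15 of 18 alternatives that can move a ratio (the 3 level limits cannot), from 3.54 to 4.28 for IFI6 and 1.17 to 1.59 for PSME2 on the log2 scale; B2M stood at 0.70 with 2 thinned UMIs, TRIM21 at 0.70 with a minimum of 10 UMIs, EIF2AK2, CNP and B3GLCT at 0.99, 0.81 and 0.77 with 3, and TAP1 at 0.84 as the mean of per-cell CPM. The values for B2M, TRIM21, EIF2AK2, CNP, B3GLCT and TAP1 are each gene's lowest, and some fell short of 2-fold more than once. Of all 18 alternatives, B3GLCT was past 2-fold in 13, TAP1 in 15, TRIM21 and CNP in 16, and B2M and EIF2AK2 in 17. No gene past 2-fold changed direction under the 15 that can move a ratio. APOA1 below 1000 CPM left 1 ISG15-high and 11 other cells and gave no values. No paired analysis was possible because each group holds 1 library. Genes under about 20 CPM rest on fewer than 30 UMIs in the ISG15-high cells.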

Other observations

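Outside the PLET1-high cells, 20 PLET1-low cells of the day 12 embryo also held 5 or more ISG15 UMIs (5 to 80, median 12), of 2910 PLET1-low cells (0.687%). Of them 14 lay among the 339 cells low in both PLET1 and APOA1 (4.13%, 2.28 to 6.83%), and 6 among the 2571 APOA1-high cells (0.233%, 0.0857 to 0.507%). HAND1 stood at 370 CPM in the 20 cells, against 1885 CPM in the ISG15-high trophectoderm cells and 88.0 CPM in PLET1-low, APOA1-high cells. Whether some of the 20 are trophectoderm was not tested. Their median was 5350.5 UMIs. Their summed levels differed from those of the ISG15-high trophectoderm cells: ISG12(A) was at 3491 against 183 CPM, B2M at 2248 against 67.7 CPM and IFI6 at 214 against 69.8 CPM, while BST2 was at 34.7 against 110 CPM. MX2 and RSAD2 had 4 and 6 UMIs in them, against 0 and 1 in the ISG15-high trophectoderm cells. ISG12(A) was seen in 16 of the 20, with 15.1% of its UMIs in the highest cell. DCN had 0 UMIs. With 20 cells of 1 library these are values only.

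A further 4 ISG15-high cells were PLET1-high at or above the APOA1 limit, of 246 such cells (1.63%, 0.445 to 4.11%), which had a median of 4084 UMIs.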
